A study of Mus musculus with 2 samples.

Results

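The miRNAs of the imprinted Dlk1-Dio3 locus were examined with a miRNA array in the pigmented mouse melanoma line B16. A probe counted as a member when its miRNA carried one of the numbers by which the hairpins of the locus are known, with any letter or arm, and 104 of the 1900 miRNA probes did so. They stand for 53 hairpins. One group had been transfected with a siRNA against Fam222B and the other with a control siRNA. The cells of both groups were grown in medium with 5% fetal bovine serum for 24 h before transfection by a lipid reagent, and total RNA was taken 48 h after it. Each group had 1 array, called the control array and the Fam222B array here, so there was no replicate, no p-value and no error between cultures. Each probe was printed as 1 spot, and the Fam222B transcript itself is not measured by these probes, so that the knockdown was not checked here.

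The Dlk1-Dio3 locus is imprinted: its protein genes Dlk1, Rtl1 and Dio3 are read from the paternal chromosome, and its long noncoding RNAs and miRNAs from the maternal one. The miRNAs lie in an intron of Meg3, antisense to Rtl1, near Rian, and in a long cluster, from miR-379 to miR-410, by the noncoding gene Mirg. They are abundant in embryo, placenta and brain, where miR-134 is known for acting in dendrites, and they are low in many adult tissues. A miRNA hairpin can give a product from each arm, 5p and 3p, and the seed, bases 2 to 8 of the product, does most of the target recognition.

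Sequences came from the RefSeq table of build GRCm38.p6, which matched 100 of the 104 members by name. Of these, 99 lay on chromosome 12 between chr12:109563710-109563731, the site of miR-770-5p in an intron of Meg3, and chr12:109743764-109743784, the site of miR-410-3p. The remaining one, miR-496b, lay on chromosome 19 in that table, so it shares a number with the locus but not its place. It gave 0.332 units above the blank spots on the control array and 2.46 on the Fam222B array, below the detection threshold on both. Of the 99 on chromosome 12, 2 lay on the minus strand, the arms of miR-299b. Capitals mark the seed in the sequences shown here. The next lines give, in order along the locus, the members with a sequence that reached 10 units above the blank spots on each array, since most of the signal of the locus lay in them and in miR-487b-3p.
miR-770-5p: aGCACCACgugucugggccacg
miR-770-3p: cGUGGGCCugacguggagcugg
miR-540-3p: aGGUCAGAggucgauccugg
miR-431-3p: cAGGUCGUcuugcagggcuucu
miR-370-3p: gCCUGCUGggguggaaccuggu
miR-494-3p: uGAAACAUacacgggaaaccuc
miR-667-5p: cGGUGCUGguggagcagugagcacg
miR-667-3p: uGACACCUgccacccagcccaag
miR-134-3p: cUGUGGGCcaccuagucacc
miR-668-3p: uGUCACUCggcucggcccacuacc

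No 2 of these 10 share a seed. Over all 100 matched members there were 93 different seeds, and 14 members fell into 7 pairs of equal seed. The next lines show 3 such pairs, those that the values given later turn on.
miR-379-5p: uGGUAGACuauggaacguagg
miR-1193-5p: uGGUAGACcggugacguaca
miR-758-5p: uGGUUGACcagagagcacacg
miR-1197-5p: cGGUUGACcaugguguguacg
miR-494-5p: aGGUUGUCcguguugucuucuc
miR-410-5p: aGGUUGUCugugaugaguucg

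Among the 50 members with a sequence that were detected on neither array, G and C made up from 23.8% to 68.2% of the bases. Some well known members at the blank level or close to the threshold, picked after their values were seen, are shown next. They include miR-369-3p, the lowest of that range, and do not stand for all dim members.
miR-127-3p: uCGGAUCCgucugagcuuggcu
miR-136-5p: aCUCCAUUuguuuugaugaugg
miR-376a-3p: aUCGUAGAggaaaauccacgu
miR-369-3p: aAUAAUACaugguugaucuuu
miR-410-3p: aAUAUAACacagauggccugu

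All values are net signals in intensity units, the median of the spot in the Cy5 channel minus the mean of the array's 896 blank spots. A probe was called detected above the mean plus 2 SD of the blank spots, from which the lowest and the highest 5% had been trimmed. That threshold was 2.28 net units on the control array and 2.59 on the Fam222B array. It is a low bar: 70 and 60 of the 896 blank spots themselves lay above it. On the control array 5 of 32 negative control spots passed it, with a mean of 0.839 ± 1.42 net units (SD over spots), and on the Fam222B array 1 of 32 did, with a mean of -0.290 ± 1.62. All of these passes came from the 8 spots of 1 of the 3 negative control probes. The melanocyte markers were clearly present, with miR-211-5p at 264 and 326, miR-211-3p at 83.3 and 70.4 and miR-204-5p at 36.3 and 30.2 net units. Of 13 markers of muscle, blood and epithelium, 12 passed the threshold on the control array and 3 on the Fam222B array, against 64.2% and 50.4% of all miRNA probes. The brightest of the 13 was miR-451a of blood cells, at 13.5 and 12.2 net units. All 4 fibroblast and smooth muscle markers were detected on both arrays, with miR-143-3p at 140 and 112. Of 3 neuronal markers 3 and 2 were detected, with miR-9-5p at 129 and 143, and both endothelial probes, for the arms of miR-126a, were detected on both arrays. The 5 epithelial probes, for miR-141, miR-200a, miR-200b, miR-200c and miR-429, lay between 2.38 and 4.91 net units on the control array. The part of other cell types' markers in the values of the members was not tested.

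Fewer of the members than of all probes were above the threshold, and in bulk RNA fewer cells with a miRNA and less of it per cell cannot be told apart. On the control array 48 of the 104 members (46.2%) were detected, against 64.2% of all miRNA probes. On the Fam222B array 28 (26.9%) were detected, against 50.4% of all probes. On both arrays 25 were detected, against 47.9% of all probes. The share was lower on the Fam222B array for both, and the fall from 48 to 28 members went with a fall from 1219 to 958 over all probes. The median net signal fell short of the threshold on each array, at 2.11 units for the members on the control array and 0.947 on the Fam222B array, while over all probes it was 3.74 and 2.63. Unscaled, 79 of the 103 members without a scanner flag were higher on the control array, against 72.6% of all probes.

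**Figure D1:**
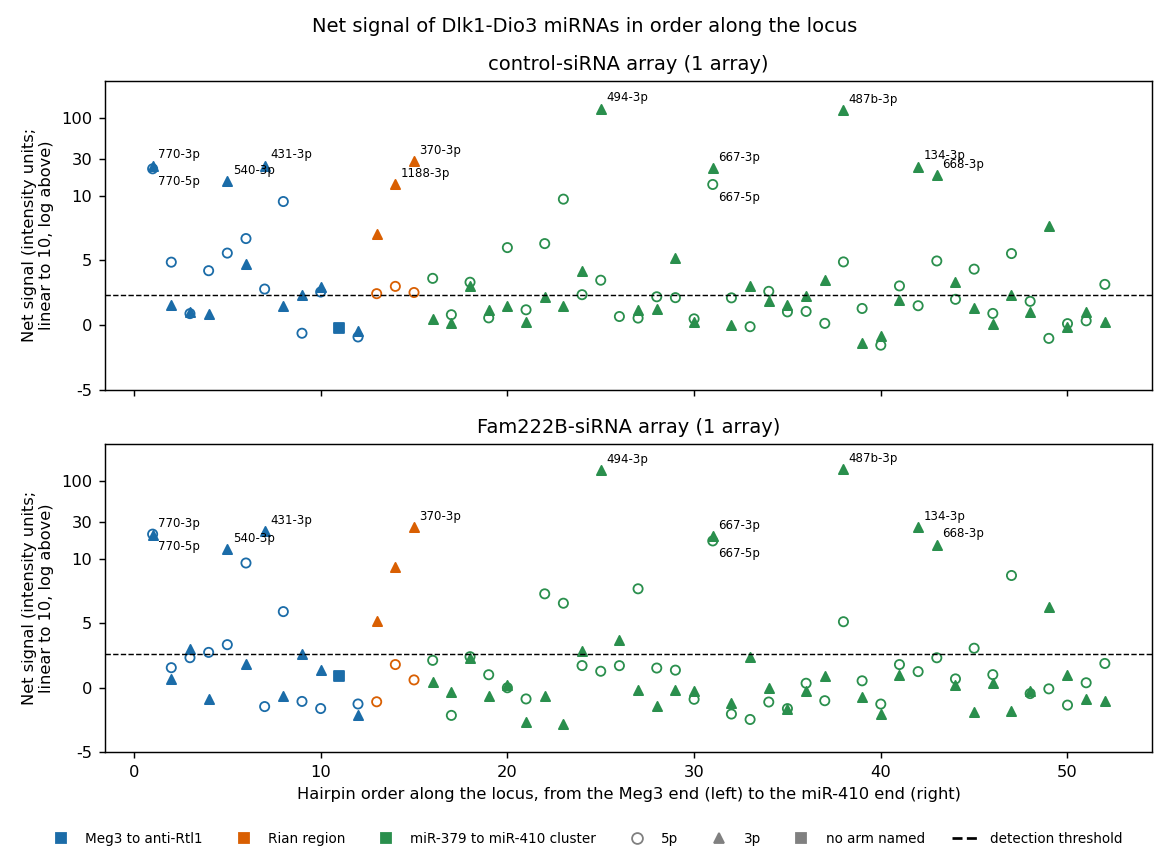
Net signal of each Dlk1-Dio3 probe in intensity units (linear to 10, logarithmic above), by the order of its hairpin along the locus, on the control array (top) and the Fam222B array (bottom). Open circles are 5p, filled triangles 3p and the square a probe with no arm named, colours give the part of the locus, the dashed line is the detection threshold, names drop "miR-", and there is 1 spot per probe. miR-494-3p and miR-487b-3p stand above 100 units on both arrays and most other probes lie within 10 units of zero.

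A pair of probes stood far above the rest. miR-494-3p gave 132 net units on the control array and 139 on the Fam222B array, and ranked 82nd and 78th among all miRNA probes of its array. miR-487b-3p gave 127 and 143 net units, with ranks of 85 and 75. Both come from the miR-379 to miR-410 cluster. In mice, blocking either of them is known to improve blood flow after an artery of the limb is closed. Together they made up 41.7% of the net signal of all detected members on the control array and 50.9% on the Fam222B array. All detected members together held 0.414% and 0.370% of the net signal of all detected probes. At least 100 net units on both arrays were reached by these 2 members of 104, against 5.05% of all probes.

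Next came 9 members that held at least 10 net units on both arrays, so that 11 of 104 did, against 22.4% of all probes. miR-370-3p, from near Rian, gave 27.8 net units on the control array and 25.5 on the Fam222B array. miR-431-3p, antisense to Rtl1, gave 24.4 and 22.5. The arms of miR-770, from the Meg3 intron, lay close to each other, miR-770-3p at 24.3 and 20.3 and miR-770-5p at 22.2 and 20.6. In the cluster from miR-379 to miR-410, miR-134-3p gave 23.7 and 25.6 net units, miR-667-3p 22.4 and 19.4, miR-668-3p 18.2 and 15.1, and miR-667-5p 13.9 and 16.9. miR-540-3p, from between Meg3 and the Rtl1 antisense miRNAs, gave 15.5 and 13.2. miR-1188-3p was at 13.96 net units on the control array and just under 10 on the Fam222B array, at 9.34. Each of these stayed well above the threshold on both arrays, and they were spread over all 3 parts of the locus.

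By part of the locus, the shares detected are set beside 64.2% and 50.4% of all probes. Among the miRNAs from Meg3 to the Rtl1 antisense group, 14 of 23 (60.9%) were detected on the control array and 10 (43.5%) on the Fam222B array, close to those of all probes. Near Rian all 6 probes, for both arms of miR-341, miR-1188 and miR-370, passed on the control array and 3, the 3p arms, on the Fam222B array. In the miR-379 to miR-410 group, which by number also holds miR-496b, 28 of 75 (37.3%) passed on the control array and 15 (20%) on the Fam222B array, below those of all probes. Without miR-494-3p and miR-487b-3p its median net signal was 1.496 and 0.392 units. miR-679-3p carried a scanner flag on the control array and has no value there. It gave 3.71 net units on the Fam222B array.

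Several well studied members, picked here after their values were seen, were at or near the blank level. miR-127-3p, which is antisense to Rtl1 and represses it, gave 2.34 net units on the control array and 2.60 on the Fam222B array, the lowest detected member on the Fam222B array. miR-136-5p, also antisense to Rtl1, gave -0.932 and -1.250. miR-434-3p, of the same group, gave 2.94 and 1.37. miR-379-5p, the first of the long cluster, gave 3.60 and 2.13, and miR-410-3p, the last, gave 0.260 and -1.05. Of the 6 probes for the miR-376 group, whose transcripts are known for A-to-I editing in brain, 1 passed on the control array, miR-376b-5p at 2.60 net units, and 0 on the Fam222B array. The markers proposed for the locus thus went apart, with miR-487b-3p bright and miR-127-3p at the threshold on both arrays.

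Many of the calls rested on small margins. On the control array 49 members lay within 1 blank SD (1.54 units) of the threshold and on the Fam222B array 31 (SD 1.66 units). On the control array miR-377-3p at 2.31 was the lowest detected member and miR-300-3p at 2.26 the highest undetected one. On the Fam222B array miR-127-3p at 2.60 was just above and miR-496b at 2.46 just below. With the threshold set from the negative control spots instead, a choice made after these values had been seen, 29 members were detected on the control array and 25 on the Fam222B array, against 50.4% and 48.1% of all probes. Under that threshold the arrays were thus closer to each other, for the members and for all probes. With the No Probe spots in place of the blank spots, 53 and 47 members were detected, against 66.3% and 62.8% of all probes. With 5 SD of the blank spots in place of 2, the counts were 19 and 16, against 37.6% and 31.4% of all probes.

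**Figure D2:**
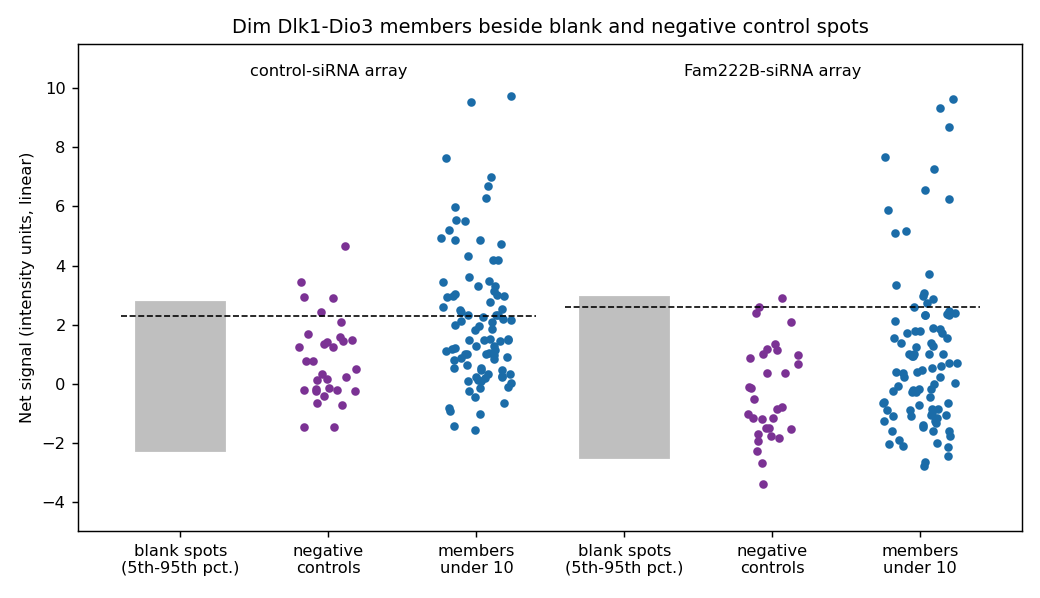
Net signal in intensity units (linear axis) of the 5th to 95th percentile of the blank spots (grey bar), of 32 negative control spots (purple points) and of the Dlk1-Dio3 members under 10 units (blue points) on each array; the dashed line is the detection threshold and points are spread sideways for clarity. The negative controls and most dim members sit lower on the Fam222B array, where 1 of 32 negative controls passed, than on the control array, where 5 of 32 did.

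On the control array alone, 23 members passed the threshold, against 16.3% of the 1898 probes without a flag. Their net signals there ran from 2.31 to 5.98 units with a median of 3.04, and on the Fam222B array from -1.77 to 2.41 with a median of 1.37. For a probe seen on 1 array only, a lower bound on the ratio was set after scaling of the arrays to each other. On the other array it took the lowest detected signal of any miRNA probe or the probe itself, whichever was brighter. The bound takes each spot as read and holds no spot error. The brightest, miR-380-5p, gave 5.98 net units on the control array and 0.00540 on the Fam222B array, which makes it at least 2.12-fold lower in the latter. It was the only one of the 23 with a bound of 2-fold, against 7.77% of the 309 such probes of the whole array. The bound was over 1 for 16 of the 23, against 225 of the 309. miR-543-3p gave 5.20 and -0.165 net units (at least 1.85-fold lower), miR-668-5p 4.95 and 2.32 (at least 1.75-fold) and miR-673-5p 4.85 and 1.56 (at least 1.72-fold). miR-665-3p gave 4.72 and 1.86 (at least 1.67-fold), and miR-379-5p was at least 1.28-fold lower. The 32 negative control spots were also lower on the Fam222B array, and the part of that shift in these bounds was not tested.

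On the Fam222B array alone, 2 members were detected, against 2.48% of the unflagged probes. miR-1193-5p gave 0.528 net units on the control array and 7.66 on the Fam222B array, at least 3.64-fold higher in the latter. Bounds of 2-fold or more were reached by 48.9% of the 47 such probes of the array. miR-1193-5p was printed in block 17, one of 4 print blocks (17, 18, 25 and 26) that an earlier look at these data had singled out. Outside these blocks 21 of the 47 probes seen on the Fam222B array alone remained, and the part of the block in the value of miR-1193-5p was not tested. miR-379-5p, which has the same seed, was printed elsewhere and passed on the control array alone. The members of this pair were thus each called on a different array. Both values of miR-379-5p lie within 1 blank SD of the threshold of their array, so its call is unsure. miR-493-3p gave 0.992 and 2.98 net units, at least 1.42-fold higher. Both values of miR-493-3p lie within 1 blank SD of the threshold of their array.

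For the 25 members detected on both arrays, the difference was taken as log2 of the net signal on the Fam222B array over that on the control array, scaled so that the median over all 910 probes detected on both arrays is 0. Before scaling that median was -0.12. No member differed by 2-fold or more, against 2.97% of the 910 probes that were higher by that much and 2.42% that were lower. Without print blocks 17, 18, 25 and 26, 0 of 24 members did so, against 0.762% of 787 probes higher and 2.16% lower. The differences ran from -0.62 to 0.77. The median of the members was -0.090, with 14 lower and 11 higher, against a median of 0 and 50% lower over all 910 by the scaling. Among the 13 members under 10 net units (geometric mean of the arrays) 8 were lower, with a median of -0.32. All 456 probes of that range had a median of -0.11 and 57.2% lower. Among the 10 members between 10 and 100 net units the median was -0.048, against 0.010 over 357 probes.

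The error within an array was taken from 5 bright control probes printed at least 8 times each (pooled CV 4.67% and 4.78%) and from the SD of the blank spots. It holds no difference between cultures, RNA preparations or hybridisations. By this measure 1 member was higher by more than 2 spot SD, against 7.8% of the 910 probes, and 0 were lower, against 1.76%. The one was miR-487b-3p, at 143 against 127 net units, with a log2 difference of 0.29 and a spot SD of 0.10. miR-494-3p, at 139 against 132, differed by 0.19 with a spot SD of 0.10, within 2 spot SD. Both were higher on the Fam222B array by little, as were most bright probes: over the 97 probes of at least 100 net units the median was 0.14 and 22.7% were lower.

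Of the 9 members from 10 to 100 units on both arrays, miR-667-5p and miR-134-3p were higher, by 0.39 (spot SD 0.23) and 0.23 (spot SD 0.16). miR-770-5p and miR-431-3p differed by 0.015 and 0.00084, and miR-370-3p by -0.0066. miR-667-3p, miR-540-3p, miR-770-3p and miR-668-3p lay between -0.15 and -0.090. None of these 9 passed 2 spot SD. Below 10 units the values spread further and the errors grew. The highest was miR-377-5p, at 8.69 against 5.52 net units (0.77, spot SD 0.50), followed by miR-665-5p, at 9.65 against 6.68 (0.65, spot SD 0.43). miR-323-5p gave 7.27 against 6.29, miR-487b-5p 5.11 against 4.87 and miR-127-3p 2.60 against 2.34. These too were within 2 spot SD.

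On the lower side, miR-540-5p gave 3.34 net units on the Fam222B array against 5.56 on the control array (-0.62, spot SD 0.83). miR-433-5p, antisense to Rtl1, gave 5.89 against 9.54 (-0.58, spot SD 0.48), and miR-337-5p 2.74 against 4.19 (-0.50, spot SD 1.03). miR-1188-3p, near Rian, gave 9.34 against 13.96 (-0.46, spot SD 0.32). Its neighbour miR-341-3p gave 5.18 against 7.002, and miR-758-5p 6.54 against 9.73. miR-329-3p gave 2.87 against 4.18, miR-154-5p 3.06 against 4.31 and miR-409-3p 6.26 against 7.63. All of these lay within 2 spot SD as well. miR-758-5p shares its seed with miR-1197-5p, which was detected on neither array, at 1.17 net units on the control array and -0.859 on the Fam222B array.

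**Figure D3:**
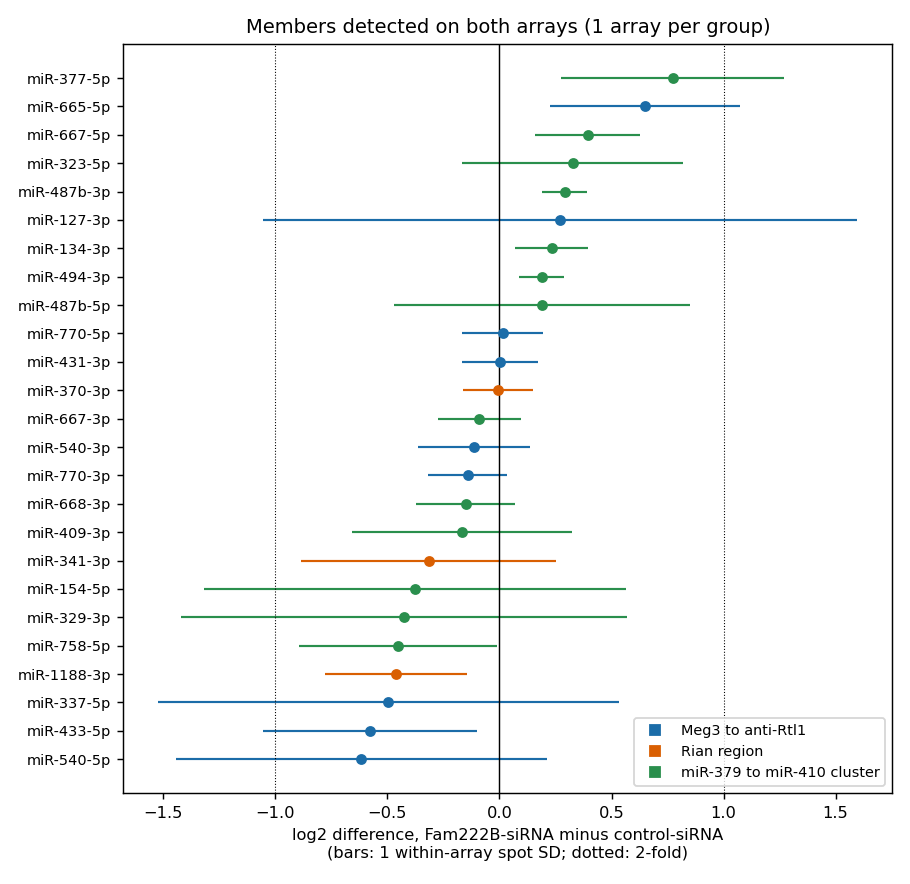
Log2 difference (Fam222B-siRNA minus control-siRNA, medians of the arrays made equal) of the 25 members detected on both arrays; points are single spots per array, bars are 1 within-array spot SD, colours give the part of the locus and dotted lines mark 2-fold. No point passes 2-fold, and miR-487b-3p, at 0.29, is the only one more than 2 of its spot SD from 0.

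Of the 25 signs, 22 were kept under 6 other ways of setting the background or the scaling. The ways that change only the scaling shift all differences by the same amount, so they can turn only signs close to 0. The 3 that turned were those of miR-370-3p, miR-431-3p and miR-770-5p, whose differences were next to 0. The files' own background column, which is not among these 6, gave a value for 11 of the 25 members and turned the sign of 2 of them. With it miR-494-3p differed by -0.40 in place of 0.19 and miR-667-5p by -1.44 in place of 0.39. The 2 members that it put higher by 2-fold or more were miR-431-3p (1.65 in place of 0.00084) and miR-487b-3p (1.37 in place of 0.29). The 2 lower by as much were miR-667-5p and miR-1188-3p (-1.23 in place of -0.46). Across the members detected on both arrays, log2 net signals of the arrays had Pearson's r = 0.971 and Spearman's rho = 0.942 (n = 25 miRNAs, which share their arrays and are no replicates). Without the 2 brightest, r was 0.939. Across the 53 members detected on neither array rho was 0.239, against 0.393 across 579 other such probes, which is a weak order below the threshold in both sets.

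The arms of a hairpin were compared for 50 hairpins with a probe for each arm and no flag. Probes differ in sequence and so in how brightly they report, and a brighter probe is no measure of a more abundant arm. On both arrays at least 1 arm was detected for 21 hairpins. The 3p probe was the brighter one on both arrays for 13 of the 21 and the 5p probe for 7. The probes of miR-770 changed order, at 22.2 (5p) and 24.3 (3p) net units on the control array against 20.6 and 20.3. On the Fam222B array they differed by less than 1 blank SD (1.66 units), so their order there is unsure. miR-770-5p was printed in block 17, one of the singled out print blocks, and the part of the block was not tested. Over all 488 such hairpins of the array the 3p probe was brighter on both arrays in 37.1%. The order of the arms was thus the same on both arrays for all but miR-770 of these hairpins. Over the whole array it was the same for all but 39 of the 488.

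The brightest hairpins had wide gaps between their arms. miR-494-5p gave 3.46 net units on the control array and 1.28 on the Fam222B array beside 132 and 139 for its 3p partner. miR-487b-5p gave 4.87 and 5.11 beside 127 and 143, and was detected on both arrays. miR-494-5p and miR-410-5p, which share a seed, were each detected on the control array alone, miR-410-5p at 3.13 net units there and 1.89 on the Fam222B array. For miR-134 the product studied in dendrites, miR-134-5p, was not detected, at 1.48 and 1.254 net units, whereas miR-134-3p gave 23.7 and 25.6. For miR-433, whose 3p product is the better studied one, the 3p probe gave 1.46 and -0.619 net units and the 5p probe 9.54 and 5.89. miR-370-5p gave 2.51 and 0.612 beside 27.8 and 25.5 for miR-370-3p. miR-431-5p gave 2.77 and -1.45 beside 24.4 and 22.5 for miR-431-3p.

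Both arms were detected on the control array for 15 hairpins and on the Fam222B array for 4, namely miR-770, miR-540, miR-667 and miR-487b. These were 30% and 8% of the 50 hairpins, against 46.8% and 33.1% of all 725 hairpins of the array. These 4 also had both arms on both arrays. Their arms moved the same way for miR-540 (-0.62 for 5p and -0.11 for 3p) and miR-487b (0.19 and 0.29). They moved opposite ways for miR-667 (0.39 and -0.090) and miR-770 (0.015 and -0.14), whose 5p probe lies in print block 17. Of these 8 differences only that of miR-487b-3p passed 2 spot SD, and the difference between the arms of a hairpin was not tested.

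The remaining hairpins with an arm on both arrays had the other arm low on at least 1 array. miR-377-3p gave 2.31 and -1.77 net units, miR-323-3p 2.15 and -0.655, miR-758-3p 1.48 and -2.80, miR-154-3p 1.28 and -1.90 and miR-337-3p 0.822 and -0.897. These are partners of brighter 5p probes. Partners of brighter 3p probes were miR-1188-5p at 2.98 and 1.80, miR-341-5p at 2.42 and -1.08, miR-329-5p at 2.34 and 1.72, miR-127-5p at -0.644 and -1.05 and miR-409-5p at -1.04 and -0.0800. None of these 10 was detected on the Fam222B array.

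**Figure D4:**
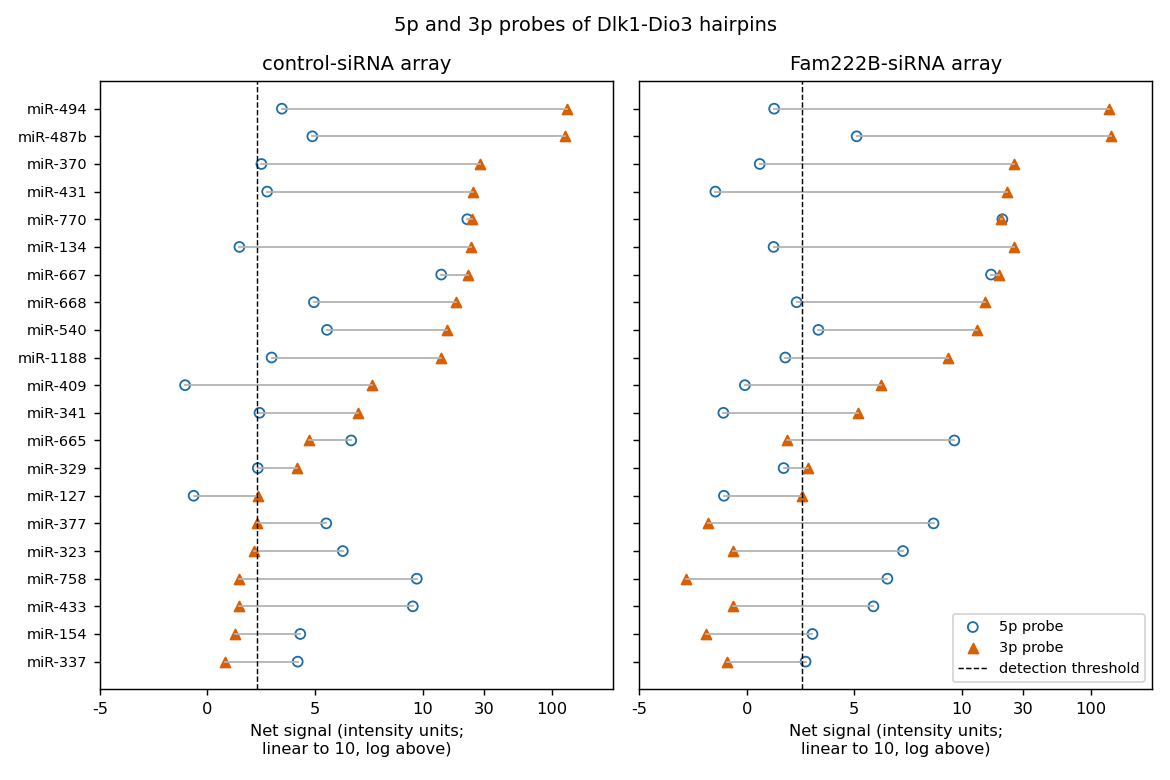
Net signal in intensity units (linear to 10, logarithmic above) of the 5p probe (open circle) and the 3p probe (triangle) of the 21 hairpins with an arm detected on both arrays, for each array; the dashed line is the detection threshold. The 3p probe lies to the right on both arrays for 13 hairpins and the 5p probe for 7.

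Detected members were richer in G and C than undetected ones, a feature that the choice of members did not use. The median share of G and C was 59.1% for the members detected on both arrays (24 with a sequence), 50% for those seen on the control array alone (23) and 43.7% for those detected on neither array (50). Among all other probes the same medians were 57.1%, 52.2% and 45.5%. Among the 10 bright members whose sequences are printed first, the median was 65.9%. miR-494-3p, the brightest of them, had the lowest share, 45.5%. miR-369-3p, with 23.8%, gave 0.979 and -0.872 net units, and miR-410-3p has 38.1%. Members detected on neither array reached a share of 68.2%.

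Under 40% G and C, 2 of 17 members were detected on the control array and 0 of 17 on the Fam222B array, against 36.7% and 26.6% of 207 other probes. At 60% and over, 14 and 11 of 18 members were detected, against 85.8% and 77.1% of 402 others. In each of 4 ranges of base composition the share of members detected was below that of the other probes on both arrays. Across 99 members Spearman's rho of net signal with the share of G and C was 0.534 on the control array and 0.558 on the Fam222B array. Across 1513 other probes it was 0.393 and 0.383. These probes share their array, and whether base composition sets probe brightness was not tested. Within a hairpin, the brighter probe had the higher share in 13 of 19 hairpins with both sequences and one order on both arrays, against 59.2% of 368 hairpins of the whole array.

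**Figure D5:**
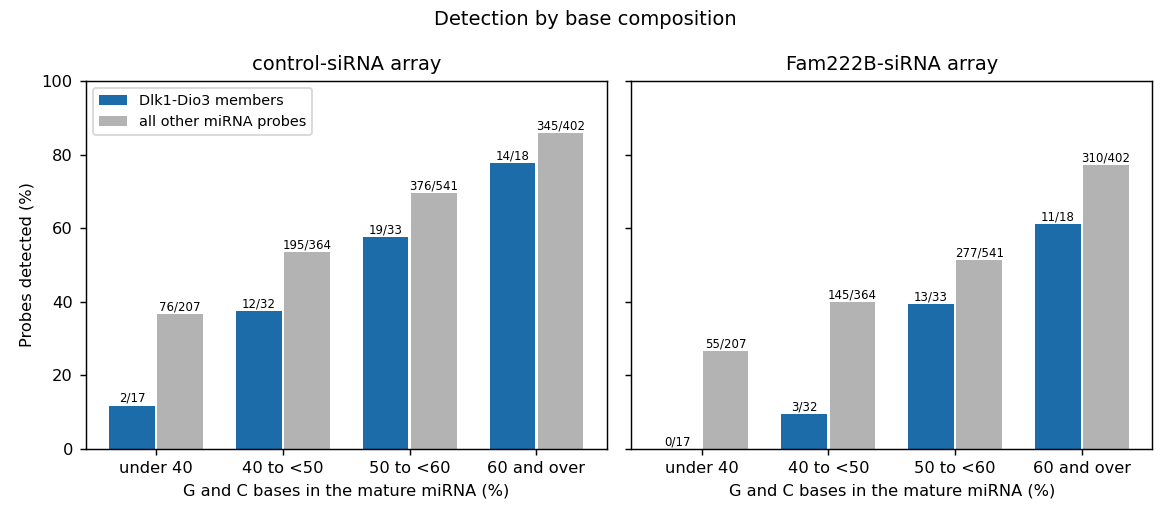
Percent of probes detected on each array by the share of G and C bases in the mature miRNA, for Dlk1-Dio3 members (blue) and all other miRNA probes with a RefSeq sequence (grey); numbers above the bars are detected over all probes of that range. The share rises with G and C in both sets and is lower for the members in each range.

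The probes listed here for miRNAs of other imprinted loci were above the threshold more often than the members. The list was chosen with earlier results of these data known, and it does not hold every imprinted miRNA locus. Of 10 such probes, for miR-675 of H19, miR-483 of Igf2, miR-296 and miR-298 of the Gnas locus and miR-335 of Mest, 8 were detected on the control array and 6 on the Fam222B array, against 64.2% and 50.4% of all probes and 46.2% and 26.9% of the members. Their median net signal was 4.57 and 2.94 units, against 2.11 and 0.947 for the members. miR-296-5p was the brightest, at 70.1 and 65.9 net units, with a log2 difference of 0.029 (spot SD 0.11). miR-675-5p gave 7.11 and 2.85 net units (-1.20, spot SD 0.90) and miR-298-5p 9.17 and 4.14 (-1.03, spot SD 0.64). Both passed 2-fold but lay within 2 spot SD. miR-335-5p was detected on the control array alone, at 3.06 net units against 2.23.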

How the data were processed

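The deposited scanner files hold, per the file headers, spot medians of raw Cy5 intensity. The authors' deposited table of processed intensity values was set against them: both columns follow the spot medians linearly, with slopes of 3.40 (control) and 3.69 (Fam222B) and subtracted backgrounds of 70.2 and 69.8 units, so its scale is linear, not log or centred. The 1220 probes listed for the control array had a median of 25, and the 961 for the Fam222B array 34.6. The scanner software is not given in the sources used here.

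From the spot medians, net signal, detection and scaled log2 differences were computed as described above (Python 3.11.15, pandas 2.3.3). The member rule sets the blank subtraction, which leaves values without the offset that normexp adds; normexp with offset 50 and quantile normalization (limma 3.58.1, R 4.3.3) was an alternative. Spots with a scanner flag were left out, miR-679-3p on the control array among the members. The steps were run on simulated arrays with known changes larger than 2-fold, no shift between the arrays and no print block effect. That run does not show how well differences under 2-fold are read. The precision is limited by the number of arrays, 1 per group. Every member detected on both arrays or on the Fam222B array alone, the 6 brightest on the control array alone, and partner arms are named. Named after their values were seen were miR-136-5p, miR-410-3p, miR-434-3p, miR-376a-3p, miR-376b-5p, miR-369-3p, miR-496b, miR-300-3p, miR-410-5p, miR-1197-5p, the arms of miR-299b and the values of miR-679-3p. The members and lists were chosen with earlier results of these data known.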

Additional observations from a re-analysis of the deposited data

How the results depend on the processing

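Of 69 recomputed results, 49 kept their direction or stayed within 1.5 times the main count, 18 moved and 2 turned. Detection counts moved on at least 1 array under 3 settings. With 5 SD of the blank spots 19 and 16 members were detected on the control and Fam222B arrays (37.6% and 31.4% of all probes). With the No Probe spots as background the counts were 53 and 47 (66.3% and 62.8% of all probes), and only the Fam222B count moved. With the negative control spots (chosen after seeing the data) the counts were 29 and 25 (50.4% and 48.1% of all probes), and only the control count moved. The median difference of members detected on both arrays (-0.090) was 0.00084 among the 11 of at least 10 net units, where 5 were lower. All 426 such probes had a median of 0.037, and 41.5% of them were lower. The median of the members was -0.21 with no scaling, where all 910 probes had a median of -0.12. With all probes of net signal above 0 it was -0.23 over 62 members, with 39 lower, against 49.96% of all 1359 such probes. Of these members 7 were higher by 2-fold or more (6.92% of the 1359 probes) and 12 lower by as much (14.1%). With the files' own background column it was 0.20 over 11 members, with 4 lower, 2 higher by 2-fold or more (10.1% of all 725 such probes) and 2 lower by as much (15.4%). At 1.5-fold, 2 members were higher and 1 lower, against 7.14% and 8.57% of all 910 probes. With blanks of the same print block 1 of 25 members was at least 2-fold lower, miR-154-5p, against 2.97% of all 910 probes. With flags ignored 1 of 26 was, miR-679-3p, against 2.52% of all 911 probes. Among hairpins with an arm of at least 10 net units, the 3p probe was brighter in 8 of 9, against 33.5% of all such hairpins. The causes were not tested. Without print blocks 17, 18, 25 and 26, an alternative picked in an earlier look at these data, the median was -0.079. No paired analysis was possible because each group has 1 array. Signals near the blank level limit what can be said of most members.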
